A study of Mus musculus with 23 samples.

Results

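The genes described are the homeobox and PAX developmental regulators of mouse cortex. They were chosen by gene symbol alone: Hox genes of clusters A to D and the single-digit members of the Dlx, Lhx, Irx, Nkx, sine oculis, Pax, Otx, Gbx, En and Emx families. Of the 39017 genes counted, 95 carried such a symbol. One of them is named as an exception by the rule, which left 94 genes, 38 of them Hox genes.

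RNA was sequenced from cortex of mice that carry 1 substituted allele of H3f3a, a gene for the replication-independent histone variant that replaces canonical histone H3 outside S phase. The substitution puts arginine in place of glycine 34 in G34R, valine in G34V and tryptophan in G34W, and every mutant was heterozygous with 1 wild type allele. At 10 weeks there were 6 wild type (WT) animals, 3 G34R animals, 3 G34V animals and 2 G34W animals, all male except 1 female G34W animal. The title of that animal starts with M, unlike its sex label, and its library held 153 CPM of Xist, the X-inactivation RNA, and 0.242 CPM of 4 Y-linked genes summed, against at most 0.272 CPM and at least 123 CPM in the other libraries at 10 weeks. The groups at postnatal day 7 held 4 WT and 4 G34R animals, 2 males and 2 females in each. The labels name no Cre or transgene and do not state how many founder lines were used.

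Homeobox genes encode transcription factors that bind DNA through a homeodomain, and PAX proteins bind it through a paired domain, which some of them combine with a homeodomain. In the embryo these factors divide the nervous system into regions. Emx, Otx and Lhx2 act in the forebrain, Dlx and Lhx6 act in the ventral forebrain that gives rise to cortical interneurons, and Hox genes act in the hindbrain and spinal cord. Many of them lie in CpG-rich regions bound by Polycomb repressive complexes, which keep them off where they are not used. Mutations at glycine 34 of this histone are known from brain and bone tumours and from neurodevelopmental disease.

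RefSeq promoter windows, from 250 bases before to 50 bases after a transcript start on GRCm38.p6, were matched by symbol for 60 of the 94 genes and gave 73 windows. The median window held 17 CG dinucleotides, against 7 over the 32851 windows of 27025 genes, and its GC content was 60% against 52.7%. The windows of 9 matched genes with no count in any animal had a median of 14 CG, and those of 15 matched detected genes had a median of 16, so CG content was above the level of all windows in both. The core homeodomain letters TAATTA, which read the same on both strands, stood in 5 of the 73 windows (6.8%) and in 5.3% of all windows. 4 windows are printed 5′ to 3′ on the strand of the gene, with CG in capitals. Nkx2-9 and Dlx1 are shown because they were called lower in mutants, Emx1 because it was expressed in every animal, and Hoxd13 because it had no count in any library.
Nkx2-9 (chr12:56613235-56613534, minus strand): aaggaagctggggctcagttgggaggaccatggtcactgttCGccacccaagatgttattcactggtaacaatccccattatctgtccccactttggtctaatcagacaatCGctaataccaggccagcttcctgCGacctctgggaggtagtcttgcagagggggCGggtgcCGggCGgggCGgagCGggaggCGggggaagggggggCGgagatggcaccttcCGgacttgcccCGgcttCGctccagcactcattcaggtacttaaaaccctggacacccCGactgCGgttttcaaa
Dlx1 (chr2:71529195-71529494, plus strand): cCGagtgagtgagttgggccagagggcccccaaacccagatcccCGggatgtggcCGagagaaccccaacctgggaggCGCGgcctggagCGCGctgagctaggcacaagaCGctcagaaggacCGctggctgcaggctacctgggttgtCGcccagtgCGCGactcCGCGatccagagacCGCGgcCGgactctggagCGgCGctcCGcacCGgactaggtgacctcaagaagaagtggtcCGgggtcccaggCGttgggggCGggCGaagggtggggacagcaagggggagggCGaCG
Emx1 (chr6:85187681-85187980, plus strand): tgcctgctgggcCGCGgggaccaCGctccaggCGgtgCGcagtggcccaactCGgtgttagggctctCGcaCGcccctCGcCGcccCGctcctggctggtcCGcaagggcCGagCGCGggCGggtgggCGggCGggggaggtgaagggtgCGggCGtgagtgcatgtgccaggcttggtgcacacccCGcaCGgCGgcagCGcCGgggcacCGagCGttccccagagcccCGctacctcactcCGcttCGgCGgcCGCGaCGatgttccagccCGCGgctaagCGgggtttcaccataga
Hoxd13 (chr2:74667975-74668274, plus strand): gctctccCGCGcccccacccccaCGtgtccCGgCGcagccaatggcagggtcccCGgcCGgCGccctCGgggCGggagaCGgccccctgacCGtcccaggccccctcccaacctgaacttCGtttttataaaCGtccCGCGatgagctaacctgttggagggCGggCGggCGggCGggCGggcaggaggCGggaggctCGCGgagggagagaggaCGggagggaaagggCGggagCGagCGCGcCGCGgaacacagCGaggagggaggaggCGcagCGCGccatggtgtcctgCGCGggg
The Nkx2-9 window held 15 CG and the Dlx1 window 27. The windows of Emx1 and Hoxd13 held 37 CG each, although one gene was expressed in every animal and the other in none. None of the 4 windows held TAATTA.

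The 23 libraries held between 28.4 and 90.1 M (mega) counts, and the 2 libraries of 1 WT animal were summed to give 22 animals. Levels are given in CPM, counts scaled to library size, on 1 scale over all animals. H3f3a itself gave 41.5 to 49.6 CPM in WT animals at 10 weeks, 41.4 to 45.4 CPM with G34R, 39.8 to 43.5 CPM with G34V and 38.4 to 45.8 CPM with G34W. At day 7 it gave 69.8 to 75.4 CPM in WT and 59.3 to 63.3 CPM with G34R. The counts hold no allele information, so H3f3a does not check the genotype labels. All 6 markers of cortical projection neurons were counted in every group, with a summed level between 717 and 1234 CPM. In these bulk samples, fewer cells of a type and less RNA per cell cannot be told apart.

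A gene was taken as detected in a group when its mean reached 0.5 CPM. By this rule 22 of the 94 genes were detected in at least 1 group and 17 in all 6 groups. The number was 18 in WT, G34R and G34V at 10 weeks, 19 with G34W, 18 in WT at day 7 and 21 with G34R at day 7. All 5 genes of the pallium, the dorsal forebrain that forms cortex, were detected in every group. Of 8 genes of the subpallium, the ventral forebrain, 7 were detected in every group, and Nkx2-1 was not. Of 15 genes of Cajal-Retzius cells and the diencephalon, between 3 and 6 were detected per group and 7 in any. None of 7 midbrain and hindbrain genes and none of 38 Hox genes reached 0.5 CPM in any group.

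**Figure D1:**
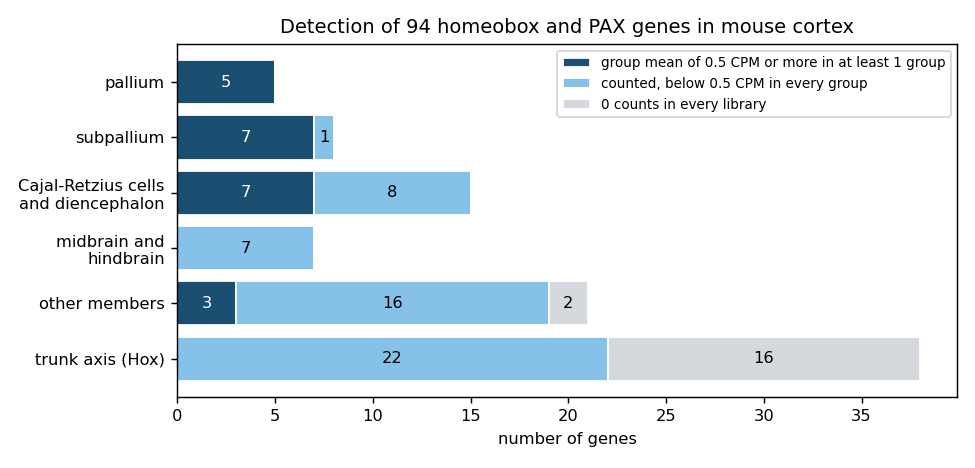
Number of genes (horizontal axis) in each developmental role, split into those with a group mean of 0.5 CPM or more in at least 1 of 6 groups, those counted below that level, and those with 0 counts in all 23 libraries. All 5 pallial genes fall in the first class, while 16 of 38 Hox genes had no count and the other 22 stayed below the level.

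The Hox genes, which pattern the body axis from hindbrain to tail, were close to silent in cortex in every genotype. All 38 together had 193 counts over the 23 libraries, out of 146783 counts for the 94 genes, and 16 of them had none. Counts were spread over clusters A (53 counts, 4 of 11 genes with none), B (69 counts, 4 of 10), C (9 counts, 6 of 9) and D (62 counts, 2 of 8). The highest Hox group mean was 0.0967 CPM, for Hoxb3 in G34R animals at day 7, and it came from 21 counts in replicate 4 alone. That animal held 55 Hox counts over 9 Hox genes, the most of all animals. Hoxb3 also had 12 counts in G34R replicate 1 at 10 weeks and none in any other animal. Hox counts per animal, not scaled to depth, were 3 to 14 in WT, 6 to 18 with G34R, 2 to 5 with G34V and 2 to 4 with G34W at 10 weeks. The highest were in the deepest animals, WT replicates 3 and 4 (85.8 and 90.1 M counts) and G34R replicate 1 (78.3 M). The G34V and G34W animals held 32.3 to 49.2 M counts. Hox counts at day 7 were 0 to 10 in WT and 1 to 55 with G34R. A count of 0 in 1 animal allows a level of up to 0.0345 to 0.115 CPM (3 counts of its total, counting error only). This takes counts as independent, but low counts were mostly even numbers, and the limit may then be higher. No Hox gene passed the filter on low counts, so none was tested.

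The midbrain and hindbrain genes were also at trace level. En2, an Engrailed factor of the midbrain-hindbrain boundary, was the highest in WT at 10 weeks, with 0.415 ± 0.073 CPM (SD, n = 6) against 0.156 ± 0.13 CPM (SD, n = 4) in WT at day 7. Pax7, a factor of the dorsal midbrain, had 32 counts in G34R replicate 1 at 10 weeks and 26 counts in G34R replicate 3 at day 7. The 6 WT animals at 10 weeks had 10 counts in all, and the G34V and G34W animals had none. Pax2, Pax3, Pax5, Pax8 and En1 stayed at group means of 0 to 0.109 CPM.

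Per kilobase of exon, the order in WT cortex at 10 weeks began with Lhx2 at 7.17 CPM per kb, Emx1 at 5.89 and Dlx1 at 4.6. Lhx6 followed at 2.40, Dlx6 at 1.85, Emx2 at 1.62, Dlx5 at 0.732 and Pax6 at 0.679 CPM per kb. In WT at day 7 the same 4 genes led, with Lhx2 at 10.6, Emx1 at 9.97, Dlx1 at 8.51 and Lhx6 at 6.64 CPM per kb. Dlx2 ranked 5 at day 7, at 1.56 CPM per kb, and 10 at 10 weeks, at 0.552.

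**Figure D2:**
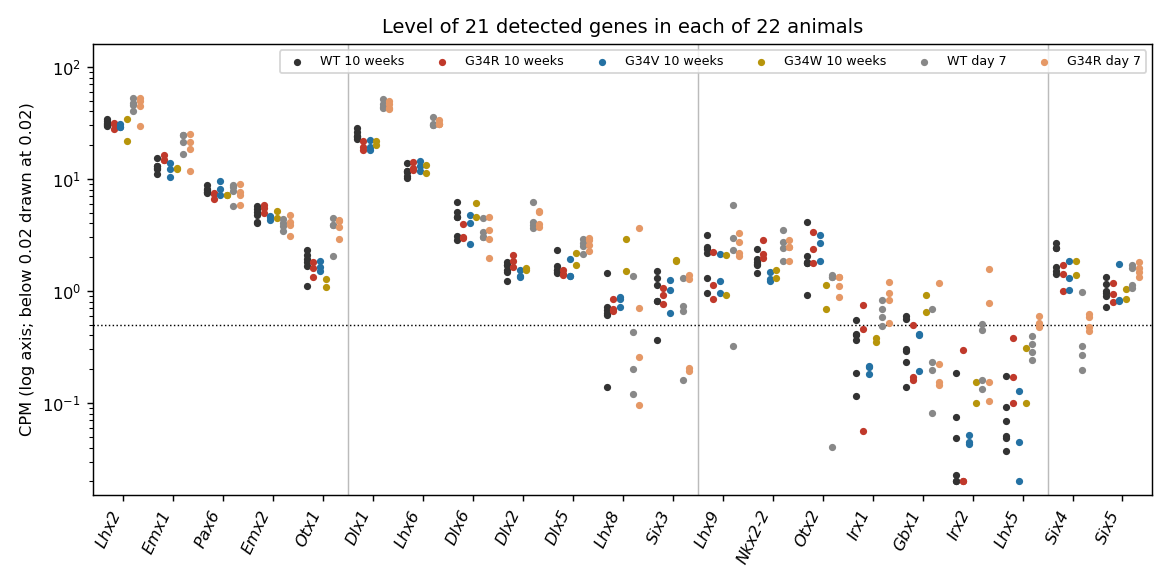
CPM on a log axis of 21 of the 22 detected genes in each of 22 animals, with one point per animal, colour for the group, vertical lines between developmental roles and a dotted line at 0.5 CPM. Lhx2 and Dlx1 stand between 17.9 and 53.2 CPM in every animal, and the ratio of the highest to the lowest animal reached 38.0 for Lhx8 with G34R and 34.3 for Otx2 in WT, both at day 7.

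No pallial gene passed the test in a mutant at 10 weeks with all animals in the fit. Lhx2, a LIM homeodomain factor that gives cortical identity to the dorsal forebrain, had 31.5 ± 1.8 CPM (SD, n = 6) in WT at 10 weeks and group means of 30.2, 29.7 and 28.2 CPM with G34R, G34V and G34W. Both G34W animals lay far apart, at 22 CPM in the male and 34.5 CPM in the female. Emx1, expressed in progenitors and excitatory neurons of cortex, had 12.9 ± 1.5 CPM in WT and 15.2 ± 1.0 CPM (SD, n = 3) with G34R. Its G34V and G34W means were 12.1 and 12.3 CPM. Emx2, which patterns the cortical surface, had means of 4.86, 5.42, 4.52 and 4.82 CPM in the same order. Otx1, a factor of deep layer neurons, had 1.82, 1.58, 1.66 and 1.17 CPM. The values at an unadjusted p under 0.05 were a log2 fold change of 0.23 for Emx1 with G34R (edgeR adjusted p = 0.226) and −0.64 for Otx1 with G34W (edgeR adjusted p = 0.227). The value of Lhx2 with G34W was −0.15 (edgeR adjusted p = 0.53). Without the female G34W replicate 2 it was −0.53 (edgeR adjusted p = 0.0136), a call that rests on 1 G34W animal whose spread is taken to be that of the other groups.

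Pax6, a factor of cortical progenitors, gave WT animals 7.48 to 8.76 CPM with a median of 7.79. The G34R animals had 7.47, 7.31 and 6.55 CPM, the G34W animals 7.20 and 7.11, and the G34V animals 8.07, 7.22 and 9.61. All G34R and G34W animals lay below all WT animals, while the G34V animals overlapped them. With G34R the gap was very narrow, at 7.4736 against 7.4761 CPM. The log2 fold change was −0.16 with G34R (edgeR adjusted p = 0.445) and −0.15 with G34W (edgeR adjusted p = 0.529), and neither passed the test. A gene on the opposite strand overlaps Pax6, as for Emx2, Lhx2, Otx2, Six3 and Nkx2-2. Whether the counting used strand is not stated in the labels.

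The subpallial genes mark the interneuron and striatal lineages. Lhx6, needed by interneurons of the medial ganglionic eminence, had 11.5 ± 1.3 CPM in WT at 10 weeks and means of 12.9, 13.1 and 12.3 CPM with G34R, G34V and G34W. Dlx6 had means of 4.39, 3.31, 3.80 and 5.30 CPM, Dlx5 1.66, 1.44, 1.55 and 1.94 CPM, and Dlx2 1.58, 1.86, 1.4 and 1.58 CPM. These Dlx genes act in the same lineage as Dlx1, and none of the 3 passed the test in a mutant. Nkx2-1, which specifies the medial ganglionic eminence in the embryo, stayed at group means of 0.163 to 0.318 CPM.

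At 10 weeks 29 of the 94 genes passed the filter on low counts and were tested. Against WT, edgeR's quasi-likelihood test called 2 of them lower with G34R (Nkx2-9 and Dlx1), 1 lower with G34V (Nkx2-9) and none with G34W, at a Benjamini-Hochberg adjusted p under 0.05. No gene of the set was called higher. Over all 21274 genes tested, 5.61% were called with G34R (2.95% higher and 2.66% lower), 4.25% with G34V (1.57% and 2.68%) and 1.61% with G34W (0.564% and 1.05%). The median log2 fold change of the 29 genes was −0.05 with G34R, −0.21 with G34V and −0.02 with G34W, beside 0, 0.01 and 0.01 over all genes. With G34V, 23 of the 29 had a negative value, among 10218 of all genes tested. At an unadjusted p under 0.05, 2 of the 29 were higher and 3 lower with G34R, beside 1844 and 2007 of all genes. With G34V they were 0 and 6, beside 1504 and 1817 of all genes. In the same comparison 7 of 8 thalamus markers were negative, with a median of −0.5 and 2 called lower, and their summed level was 51.5 to 68.2 CPM with G34V against 67.4 to 114 CPM in WT. All 4 oligodendrocyte markers were negative, with a median of −0.58 and 1 called lower. All 7 striatal markers were also negative, with a median of −0.29. All 8 choroid plexus markers were positive, with a median of 0.51, and neither list held a call. The part of these cells in the values of the 29 genes was not tested. The 3 comparisons share the 6 WT animals.

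Nkx2-9 (ENSMUSG00000058669, chromosome 12, 56611389 to 56613284 on GRCm38) encodes an NK2 homeodomain factor of the ventral neural tube. In WT at 10 weeks its lowest level was 0.196 CPM, the median 0.297 CPM and the highest 0.354 CPM, from 10 to 24 counts per animal. The G34R animals had 0.0403, 0 and 0.0495 CPM, from 3, 0 and 2 counts. The G34V animals had 0, 0.045 and 0 CPM, from 0, 2 and 0 counts, and the G34W animals 0.0766 and 0.149 CPM, from 2 and 6 counts. Every WT animal lay above every mutant animal. At day 7 none of the 8 animals, WT or G34R, had a single count.

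Relative to WT, the fitted log2 fold change of Nkx2-9 was −3.06 with G34R (SE 0.685, edgeR adjusted p = 0.0112) and −4.04 with G34V (SE 0.802, edgeR adjusted p = 0.00596). With G34W it was −1.29 (SE 0.695, edgeR adjusted p = 0.354). From summed counts, 5 with G34R against 96 in WT gave a depth-scaled ratio of 0.118 (95% interval 0.0374 to 0.285). The 2 counts with G34V gave 0.0545 (0.00651 to 0.202), and the 8 with G34W gave 0.427 (0.179 to 0.875). The intervals are exact if counts are independent, and they cover counting error only. Low counts were mostly even numbers, so the intervals may be too narrow. The G34W interval may then reach a ratio of no change. The gene passed the filter through its WT counts, so its test could have come out only as a fall. Its G34R call was lost without G34R replicate 1 (adjusted p = 0.0559). With the runs of neighbouring animal numbers in the titles as a block, the G34V value was −4.12 and its call was lost (adjusted p = 0.0522), while the G34R call held (adjusted p = 0.0479). Without G34V replicate 2, the only G34V animal with a count, the fitted value was −6.86 (adjusted p = 0.00742), and the size of the fitted G34V change is therefore not fixed by these counts.

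**Figure D3:**
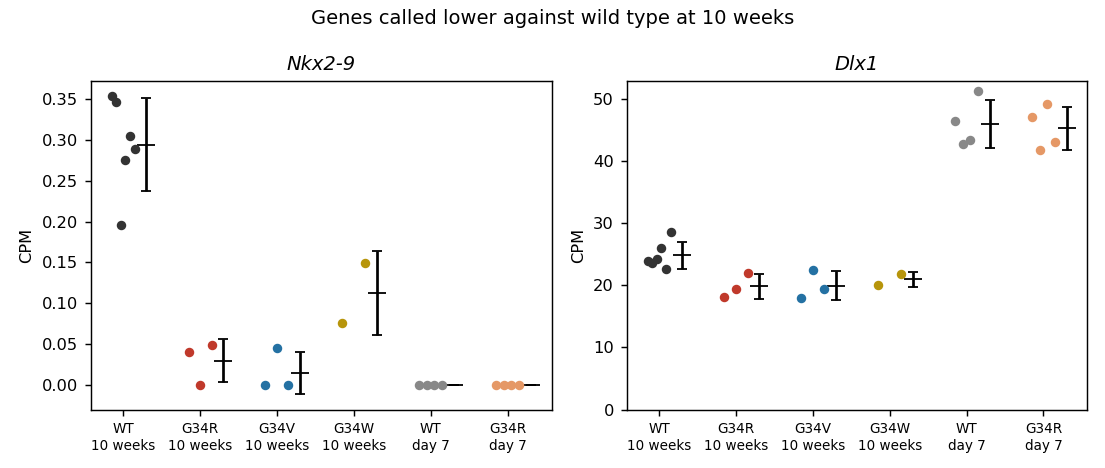
CPM of Nkx2-9 and Dlx1 in each animal of the 6 groups (points), with the group mean and SD beside them (bars). All 8 mutant animals at 10 weeks lie below all 6 WT animals for both genes, Nkx2-9 is at 0 in all 8 animals at day 7, and the day 7 groups overlap for Dlx1.

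Dlx1 (ENSMUSG00000041911, chromosome 2, 71528113 to 71533981), a Distal-less factor that interneurons need for their maturation and survival, moved by a smaller amount. WT animals had 22.6 CPM at the lowest, 24.1 at the median and 28.6 at the highest. The G34R animals had 18.1, 19.4 and 22 CPM, the G34V animals 17.9, 22.4 and 19.4 CPM, and the G34W animals 20.1 and 21.8 CPM. All 8 mutant animals lay below all 6 WT animals, by a narrow gap.

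The log2 fold change of Dlx1 was −0.33 with G34R (SE 0.0882, edgeR adjusted p = 0.0344), −0.32 with G34V (SE 0.0882, edgeR adjusted p = 0.0514) and −0.25 with G34W (SE 0.103, edgeR adjusted p = 0.237). Its value stayed between −0.40 and −0.27 with G34R under 23 alternatives, but the call was lost in 9 of them. It was lost without G34R replicate 1 (adjusted p = 0.194) or 2 (0.13), without WT replicate 1 (0.0524), 3 (0.058), 4 (0.0712) or 6 (0.0598), and without G34V replicate 3 (0.05). Among the 6 libraries with a lower share of mitochondrial counts, 3 WT and 3 G34R, the value was −0.31 with an adjusted p of 0.0664. With the runs of animal numbers in the titles as a block it was −0.37, with an adjusted p of 0.0964.

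Dlx1 overlaps Dlx1os, an antisense gene, which had 6.15 ± 0.48 CPM in WT (SD, n = 6), 4.48 ± 0.50 with G34R and 4.84 ± 0.36 with G34V (SD, n = 3 each). Its log2 fold change was −0.46 with G34R (edgeR adjusted p = 0.0199) and −0.35 with G34V (edgeR adjusted p = 0.0952). Reads from the pair cannot be told apart without the strand setting. Dlx6os1, the antisense partner of Dlx6, fell with G34R by 0.44 in log2 (SE 0.0773, edgeR adjusted p = 0.00169) and by 0.34 with G34V (edgeR adjusted p = 0.0165). With G34W it had 0.08 (edgeR adjusted p = 0.691). Dlx6 itself had no call. All 8 interneuron markers were counted in every group. Their summed level was 675 to 754 CPM in WT, 675 to 687 with G34R, 641 to 682 with G34V and 775 to 784 with G34W. The part of interneuron content in the Dlx1 values was not tested.

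For 2 genes, Nkx2-9 and Dlx1, all 8 mutant animals lay below all WT animals, as they did for 1.64% of all genes tested. No gene of the set had all 8 above WT, where 0.771% of all genes did. Taken by genotype, 4 of the 29 genes lay wholly below WT with G34R (Dlx1, Irx6, Nkx2-9 and Pax6), where 6.06% of all genes did. With G34V there were 3 (Dlx1, Irx6 and Nkx2-9), where 5.9% of all genes did. None lay wholly above WT in either, where 6.16% and 4.32% of all genes did. Irx6, an Iroquois factor, had 0.0689 to 0.254 CPM in WT (median 0.211), 0.0538, 0.0567 and 0.0495 with G34R, and 0.0519, 0 and 0.0427 with G34V. The G34W animals had 0.0766 and 0.348 CPM. Its log2 fold change was −1.77 with G34R (edgeR adjusted p = 0.168) and −2.51 with G34V (edgeR adjusted p = 0.0873). Irx6 had at most 4 counts in a G34R animal and 2 in a G34V animal. It passed the filter through other groups, as Nkx2-9 did through WT. For both genes the comparisons with G34R and G34V thus leaned to a fall.

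**Figure D4:**
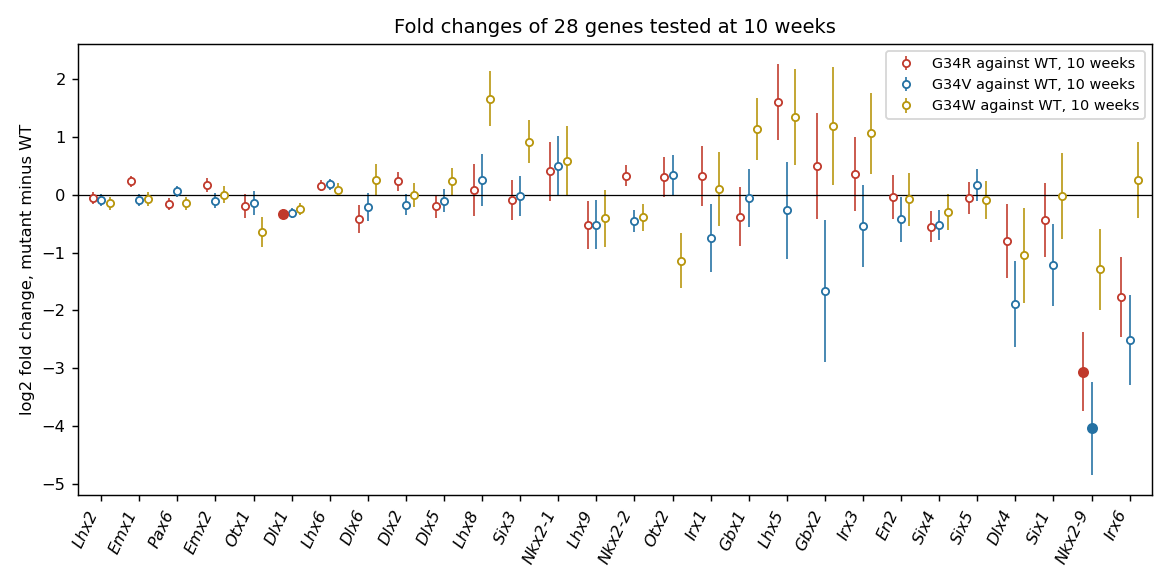
Log2 fold change (vertical axis) of 28 of the 29 genes tested at 10 weeks, mutant minus WT, with its standard error (bars), ordered by role and level. Filled points mark the calls, Nkx2-9 with G34R and G34V and Dlx1 with G34R. Standard errors widen for genes of low level on the right of each role.

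With G34W no gene passed in edgeR's test. At an unadjusted p under 0.05, 3 of the 29 genes were higher and 3 lower, beside 1739 and 1908 of all 21274 genes. DESeq2 called 1 (Lhx8, higher) and limma-voom none, and the shares over all genes by these methods are not given here. Lhx8, Six3 and Gbx1 lay wholly above WT, where 7.54% of all genes did, and Dlx1, Nkx2-9 and Pax6 wholly below, where 8.86% did. Lhx8, a LIM factor of cholinergic neurons of the basal forebrain and striatum, had 2.91 and 1.49 CPM with G34W. In WT it had 0.138 at the lowest, 0.653 at the median and 1.43 at the highest. Its log2 fold change was 1.66 (SE 0.473, edgeR adjusted p = 0.0932), and it was called higher without WT replicate 2 (adjusted p = 0.0261) or 4 (0.0497).

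Six3, a factor of the anterior forebrain and of striatal neurons, had 1.88 and 1.84 CPM with G34W, against a WT range of 0.367 to 1.51 and a median of 0.969. Gbx1, a homeodomain factor of the ventral forebrain, had 0.92 and 0.646 CPM, against 0.138 to 0.6 with a median of 0.299. The log2 fold changes were 0.92 for Six3 (edgeR adjusted p = 0.224) and 1.14 for Gbx1 (edgeR adjusted p = 0.284). In the same animals the 7 counted striatal markers summed to 613 and 741 CPM, against 306 to 719 in WT, 401 to 544 with G34R and 384 to 476 with G34V. The 7 counted markers of basal forebrain and hypothalamus summed to 19.9 and 29.5 CPM, against 5.02 to 16.9 in WT, 8.06 to 11.0 with G34R and 9.41 to 11.6 with G34V. Of these, Hcrt had no count with G34W. Their part in the G34W values was not tested.

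Otx2, a forebrain factor that the choroid plexus also expresses, had 0.69 and 1.12 CPM with G34W. WT animals had 0.918 to 4.09 CPM with a median of 1.80, the G34R animals 3.36, 2.38 and 1.78, and the G34V animals 2.70, 1.87 and 3.16. The G34W and WT ranges overlapped, and the log2 fold change was −1.14 (SE 0.479, edgeR adjusted p = 0.243). The 8 choroid plexus markers summed to 15.6 and 206 CPM with G34W, 155 to 955 in WT, 450 to 744 with G34R and 244 to 1070 with G34V, and the part of this tissue in the Otx2 values was not tested.

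Other detected genes had no call against WT. Nkx2-2, which acts in oligodendrocyte differentiation, had 1.83 ± 0.29 CPM in WT (SD, n = 6), 2.32 ± 0.48 with G34R, 1.33 ± 0.14 with G34V (SD, n = 3 each) and a mean of 1.41 with G34W. The 4 oligodendrocyte markers summed to 3576 to 4746 CPM in WT, 2680 to 3454 with G34R, 2259 to 2946 with G34V and 2469 to 3794 with G34W, and their part in it was not tested. Lhx9, a factor of the diencephalon, had means of 2.08, 1.4, 1.44 and 1.52 CPM in that order. Six4 had 2.02, 1.37, 1.39 and 1.61 CPM, and Six5 1.01, 0.97, 1.13 and 0.944 CPM. For Lhx9, Six4 and Six5 the mutant animals overlapped WT in every comparison at 10 weeks.

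The substitutions were also compared with each other. No gene of the 29 was called between G34R and G34V, G34R and G34W or G34V and G34W by edgeR, where 0.23%, 1.88% and 0.15% of all genes were. At an unadjusted p under 0.05 the counts were 3 higher and 0 lower, 3 higher and 5 lower, and 1 higher and 4 lower. Over all 21274 genes they were 1192 and 1124, 1838 and 2033, and 1250 and 1236. DESeq2 called 1, 1 and 0, and limma-voom none, and the shares over all genes by these methods are not given here. Nkx2-2 had the smallest p between G34R and G34V, with a log2 difference of 0.79 ± 0.217 SE (edgeR adjusted p = 0.173, DESeq2 adjusted p = 0.048). Nkx2-9 differed by −2.75 between G34V and G34W (SE 1.07, edgeR adjusted p = 0.328), so a difference between these substitutions was not shown at this depth.

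At postnatal day 7 edgeR called none of the 25 genes tested with G34R, where 0.308% of all 20451 genes were called. At an unadjusted p under 0.05 there was 1 higher (Lhx5) and 1 lower, beside 779 and 806 of all genes. DESeq2 and limma-voom called none of the 25. The median log2 fold change of the 25 genes was 0.03, beside 0 over all genes. Lhx5, expressed in Cajal-Retzius cells, had 0.398, 0.242, 0.285 and 0.334 CPM in WT and 0.514, 0.601, 0.483 and 0.479 CPM with G34R. The groups did not overlap, as 2.28% of all genes did in this direction, and the log2 fold change was 0.74 (SE 0.294, edgeR adjusted p = 0.579). At 10 weeks the Lhx5 value with G34R was 1.6 (SE 0.653, edgeR adjusted p = 0.194). Of the 25 genes, 1 lay wholly below WT, as 2.92% of all genes did.

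Dlx1 at day 7 had 46.4, 42.8, 43.4 and 51.1 CPM in WT and 47.1, 41.7, 49.1 and 43.1 CPM with G34R, and the groups overlapped. The difference of the G34R effect between 10 weeks and day 7 was tested in 1 fit of all 22 animals. No gene of the 32 tested there was called by edgeR, DESeq2 or limma-voom, where 1.16% of all 22417 genes were called by edgeR. At an unadjusted p under 0.05, 1187 of all genes were higher and 1276 lower. Of the 32 genes, 1 was lower at that level. That gene was Dlx1, with a log2 difference of −0.31 ± 0.118 SE (edgeR adjusted p = 0.301). A change of the Dlx1 effect with age was therefore not shown. For Nkx2-9 no day 7 animal had a count, so the G34R effect at that age could not be measured.

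Levels of some ventral forebrain genes varied widely between animals of 1 group. G34R replicate 2 at day 7 had 3.67 CPM of Lhx8, against 0.0966 to 0.7 in the other 3 animals, and 1.18 CPM of Gbx1, against 0.145 to 0.221. It also had the highest summed striatal markers (287 CPM) and interneuron markers (431 CPM) of the day 7 G34R animals, whose lowest were 77.5 and 247 CPM. Irx1 and Irx2, Iroquois factors, reached detection only through the day 7 means, which were 0.648 and 0.876 CPM for Irx1 in WT and G34R and 0.313 and 0.649 CPM for Irx2. The G34R mean of Irx2 rested on replicate 4, with 1.57 CPM, and was 0.343 CPM without it, below the detection level. At 10 weeks the group means of Irx1 lay between 0.2 and 0.419 CPM and those of Irx2 between 0.0465 and 0.126 CPM. Lhx5 was detected in 1 group alone, G34R at day 7, where its mean of 0.519 CPM became 0.492 CPM without replicate 2, and Gbx1 in 1 group alone, G34W.

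The other detected genes gave these day 7 means in WT and then with G34R, with overlapping animals in each case. The pallial genes had 46.5 and 44.2 CPM for Lhx2, 21.8 and 19.1 for Emx1, 7.69 and 7.44 for Pax6, 3.92 and 3.96 for Emx2, and 3.55 and 3.78 for Otx1. The subpallial genes had 31.9 and 31.6 CPM for Lhx6, 4.46 in both for Dlx2, 3.47 and 3.23 for Dlx6, 2.55 and 2.67 for Dlx5, and 0.715 and 0.77 for Six3. Of the remaining genes, Lhx9 had 2.86 and 2.55 CPM, Nkx2-2 2.62 and 2.4, Otx2 1.02 and 1.16, Six5 1.37 and 1.56, and Six4 0.44 and 0.53.

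Between WT cortex at 10 weeks and at day 7, edgeR called 6 genes higher and 11 lower at 10 weeks of the 32 tested, where 67.7% of all 22417 genes were called (33.3% higher and 34.4% lower). The median log2 fold change of the 32 genes was 0.02, beside −0.01 over all genes. The samples of both ages were deposited in separate runs with differently written labels, and the day 7 groups hold females. Age and deposit cannot be told apart. With males only, 11 genes were called, and the share over all genes in that fit is not given here.

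Of the 8 subpallial genes, 4 were called lower at 10 weeks and none higher. Lhx6 had 11.5 ± 1.3 CPM (SD, n = 6) at 10 weeks against 31.9 ± 2.6 CPM (SD, n = 4) at day 7 (log2 fold change −1.47 ± 0.0785 SE, edgeR adjusted p = 3.46e-14). Dlx1 had 24.8 ± 2.2 against 45.9 ± 3.8 CPM and fell by 0.89 on the log2 scale (edgeR adjusted p = 1.85e-10). Dlx2 had 1.58 ± 0.21 against 4.46 ± 1.2 CPM and fell by 1.48 (edgeR adjusted p = 7.68e-09), and Dlx5 fell by 0.62 (edgeR adjusted p = 0.00133). The groups did not overlap for Lhx6, Dlx1 and Dlx2. Dlx6, Lhx8, Six3 and Nkx2-1 had no call, with log2 fold changes of 0.34, 0.33, 0.45 and −0.99. Over the same animals the interneuron markers, which include the GABA-synthesising enzymes and the neuropeptides, summed to 675 to 754 CPM at 10 weeks and to 246 to 356 CPM at day 7.

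Of the pallial genes, 3 were lower and 1 higher at 10 weeks. Lhx2 had 46.5 ± 5.2 CPM at day 7 and fell by 0.56 on the log2 scale (edgeR adjusted p = 5.79e-04), Emx1 had 21.8 ± 3.8 CPM and fell by 0.75 (edgeR adjusted p = 1.53e-04), and Otx1 had 3.55 ± 1.0 CPM and fell by 0.95 (edgeR adjusted p = 1.46e-04). Emx2 rose by 0.30 from 3.92 ± 0.39 CPM (edgeR adjusted p = 0.0326). Pax6 had 7.94 and 7.69 CPM at 10 weeks and day 7, which differed by 0.05 on the log2 scale (edgeR adjusted p = 0.734).

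Among the genes of Cajal-Retzius cells and the diencephalon, Lhx1 and Lhx5, which mark Cajal-Retzius cells, fell by 2.10 and 2.05 on the log2 scale (edgeR adjusted p = 0.0056 and 9.83e-04). Lhx5 went from 0.315 ± 0.067 to 0.0786 ± 0.05 CPM, with no overlap. The 4 Cajal-Retzius markers summed to 471 to 516 CPM in WT at day 7 and 154 to 241 CPM at 10 weeks. Irx2 fell by 2.51 (edgeR adjusted p = 0.0162) and Nkx2-2 by 0.51 (edgeR adjusted p = 0.0117). Lhx1 and Irx2 passed the filter in the day 7 fit and not in the 10-week fit. Their age tests thus leaned to a fall. The fall of Nkx2-2 stood beside oligodendrocyte markers that summed to 113 to 158 CPM at day 7 and 3576 to 4746 CPM at 10 weeks. The part of these cells in the values was not tested.

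The 6 genes called higher at 10 weeks included Six4, Dlx4, En2, Emx2 and Nkx2-9. Six4 had 0.44 ± 0.36 CPM at day 7 and rose to 2.02 ± 0.55 CPM (log2 fold change 2.15 ± 0.339 SE, edgeR adjusted p = 5.59e-06). Dlx4 rose by 2.06 (edgeR adjusted p = 0.023) and En2 by 1.34 (edgeR adjusted p = 0.0374). For Nkx2-9, 3 counts over all 4 WT animals at day 7 would give 0.0167 CPM. The 0.283 CPM over the pooled WT counts at 10 weeks was 16.9-fold that. This takes counts as independent and the 10-week level as exact, so the rise may be smaller. Nkx2-9 passed the filter through its counts at 10 weeks, with none at day 7, so its age test could have come out only as a rise. Dlx4 and En2 passed the filter in the 10-week fit and not in the day 7 fit. Their age tests thus leaned to a rise. Dlx4 overlaps a gene on the opposite strand. Wholly above their day 7 values were 3 genes, Nkx2-9 and Six4 among them, where 26.6% of all genes were, and wholly below were 6 (Dlx1, Dlx2, Emx1, Lhx2, Lhx5 and Lhx6), where 28% were.

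**Figure D5:**
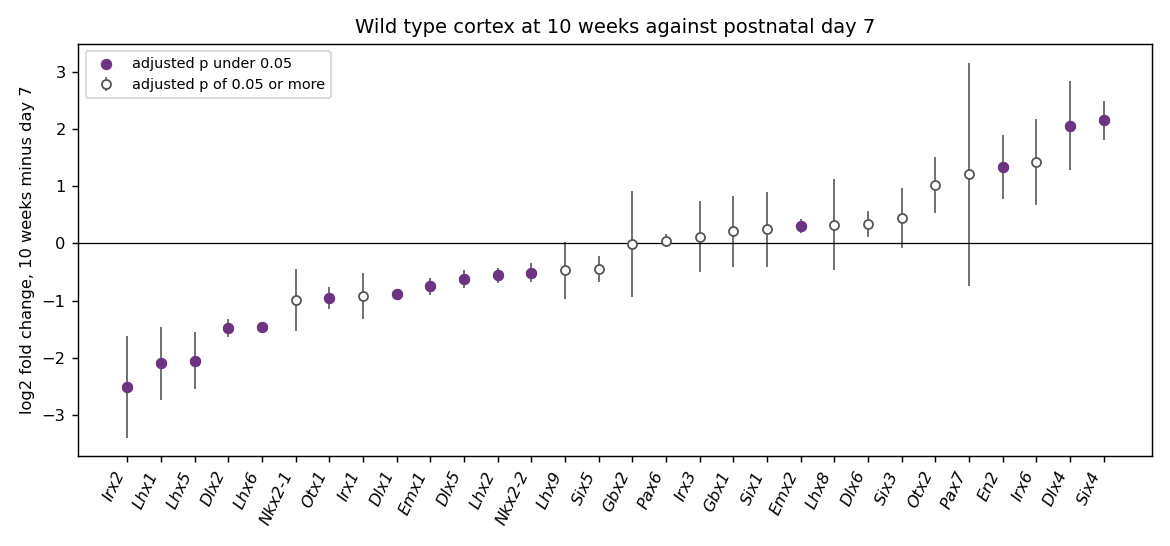
Log2 fold change, WT at 10 weeks minus WT at day 7, with its standard error (bars), for 30 of the 32 genes tested, in order of value. Filled points mark an adjusted p under 0.05; Nkx2-9 is not drawn because no day 7 animal had a count. Lhx6 and Dlx1 have the narrowest bars, Irx2 lies lowest and Six4 highest.

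Other homeobox genes and the Polycomb machinery were read from lists of their own. Of 101 other homeobox genes in the file, 61 were tested at 10 weeks. With G34R 3 of the 61 (4.92%) were called higher, where 2.95% of all genes were, and none lower. They were Hhex (log2 fold change 0.97, edgeR adjusted p = 0.0323), Hopx (0.45, adjusted p = 0.0197) and Pou3f2 (0.41, adjusted p = 0.0198). In the same comparison 3 of 4 microglia markers were called higher, with sums of 268 to 289 CPM with G34R against 189 to 203 CPM in WT, and their part in these values was not tested. At an unadjusted p under 0.05 the list had 4 higher and 5 lower with G34R, beside 1844 and 2007 of all 21274 genes. With G34V, Pou3f2, a POU factor of upper layer neurons, was the only call (0.44, edgeR adjusted p = 0.0162). With G34W, Adnp, Pbx3 and Prrx1 were called higher, 4.92% of the 61 where 0.564% of all genes were (0.34, 0.80 and 0.61, edgeR adjusted p = 0.0368, 0.0361 and 0.0421). The list's median log2 fold changes were 0.01, 0.03 and 0.03. At day 7 none of 63 was called by edgeR, where 0.308% of all genes were. At an unadjusted p under 0.05 there were 1 higher and 3 lower, beside 779 and 806 of all 20451 genes.

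The list of 38 Polycomb genes also held Kdm6 and Asxl genes, which are not subunits of the repressive complexes. All 38 were tested at 10 weeks, and 2 were called higher with G34R, 3 with G34V and 2 with G34W, and none lower. These were 5.26%, 7.89% and 5.26% of the list, where 2.95%, 1.57% and 0.564% of all genes were called higher and 2.66%, 2.68% and 1.05% lower. Cbx8, a chromobox subunit of Polycomb repressive complex 1, had 11.1 ± 0.96 CPM in WT (SD, n = 6), 12.8 ± 1.1 with G34R, 15.5 ± 1.8 with G34V (SD, n = 3 each) and 16.3 ± 0.67 with G34W (SD, n = 2). Its log2 fold changes were 0.48 with G34V and 0.54 with G34W (edgeR adjusted p = 0.00412 and 0.0159). Kdm2b, which binds unmethylated CpG and brings a variant of that complex to it, had 0.24 with G34R and 0.29 with G34V (edgeR adjusted p = 0.04 and 0.016). At day 7 none of the 38 was called by edgeR, where 0.308% of all genes were. At an unadjusted p under 0.05 there were 2 higher and 3 lower, beside 779 and 806 of all 20451 genes. The age difference of the G34R effect was called for Kdm2b alone of the list (0.35, edgeR adjusted p = 0.0419), where 1.16% of all genes were called.

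A list of 19 genes of DNA methylation and of methylation at lysine 36 of histone H3, with H3f3a itself among them, had 18 tested. Tet1, which oxidises methylated cytosine, was the only call with G34R and with G34V at 10 weeks (−0.27 in each, edgeR adjusted p = 0.0379 and 0.0429). Over all genes 5.61% and 4.25% were called. No gene of that list was called with G34W by edgeR, where 1.61% of all genes were. At an unadjusted p under 0.05 there were 2 higher and 2 lower, beside 1739 and 1908 of all 21274 genes. At day 7 H3f3a, the substituted gene itself, was the only call of the list with G34R (−0.25, edgeR adjusted p = 0.0428), where 0.308% of all genes were called.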

How the data were processed

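RNA was sequenced from total RNA of cortex after ribosomal RNA depletion, per the labels' protocols. The deposited values were raw counts per gene for 23 libraries. The submitters' processing notes name the mm10 build, featureCounts 1.4.4, STAR 2.3.0e, Trimmomatic 0.32 and bedtools 2.27.1. Strand setting and annotation release: not given in the sources used here. Of 39017 gene IDs, 37693, including all 94 members, were in GENCODE M21, used for coordinates. No per-sample column was left out.

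Groups came from the genotype and age labels, and replicates were separate animals. The 2 libraries of 1 WT animal were summed. No 2 of the libraries were identical. Tests used edgeR 4.0.16 (R 4.3.3; quasi-likelihood, robust), TMM scaling, filterByExpr and Benjamini-Hochberg adjustment over all genes tested, at 0.05. Fits held the 14 animals at 10 weeks, the 8 at day 7 with sex as covariate, or all 22, and 175 sex-linked genes were left out. Alternatives used DESeq2 1.42.0 and limma 3.58.1, and the procedure was tested on simulated data. Shares over all genes are those of edgeR's main fits. P-values set each group difference against the spread between the animals of a fit. That spread is pooled over the groups of the fit and drawn towards that of other genes.

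Members called, or with a group mean of at least 0.5 CPM, were named with group values, those called against WT with values per animal, and up to 4 genes per other list by smallest adjusted p. Genes named for groups that did not overlap, or for values at an unadjusted p under 0.05, were chosen after their values were seen. Some results are not reported here. Members and lists were chosen with earlier results of these data known.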

Additional observations from a re-analysis of the deposited data

Results flagged for a closer look

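Within-group values that stood far from the rest by Dixon's criterion numbered 8 in 66 groups of 4 or 6 animals checked; chance gives about 1 in 20. At 10 weeks in WT, replicate 2 had 2.31 CPM of Dlx5 (others 1.45 to 1.66) and replicate 5 had 4.09 CPM of Otx2 (others 0.918 to 2.05). In WT at day 7, replicate 1 had 35.7 CPM of Lhx6 (others 30.3 to 31.2) and replicate 2 had 0.0403 CPM of Otx2 (others 1.33 to 1.38). The choroid plexus markers of that replicate summed to 5.53 CPM, the lowest of all WT animals at day 7, and their part in the Otx2 value was not tested. Replicate 3 of that group had 0.976 CPM of Six4 (others 0.196 to 0.323). In G34R at day 7, replicate 2 had 33.7 CPM of Lhx6 (others 30.7 to 31.1), 1.18 CPM of Gbx1 (others 0.145 to 0.221) and 3.67 CPM of Lhx8 (others 0.0966 to 0.7).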

How the results depend on the processing

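Of the counts of members called, those for G34R at day 7 (13 alternatives), for the age difference of the G34R effect (28) and for G34V against G34W (22) stayed at 0. With G34V the count against WT was 1; it was 2 with RLE scaling, no filter, DESeq2, limma-voom, a sex covariate or the libraries of 1 animal kept apart, where the added gene was Dlx1, or Irx6 with limma-voom. With the runs of animal numbers as a block it was 0 with G34V and 1 with G34R; Nkx2-9 then had an adjusted p of 0.0522 with G34V. Among the 6 libraries of lower mitochondrial share the count with G34R was 0, and Nkx2-9 was not tested there. DESeq2 gave 1 with G34W (Lhx8), 1 between G34R and G34V (Nkx2-2) and 1 between G34R and G34W (Otx2), and a sex covariate gave 1 with G34W and 1 between G34R and G34W (Lhx2). With 1 female among the 14 animals, the sex covariate fits that animal alone and repeats the fit without it. Leaving out each animal in turn gave 0 to 2 with G34R, 1 to 2 with G34V, 0 to 1 with G34W and 0 to 1 between G34R and G34W, with 0 for the other comparisons of genotypes. Between ages the count of 17 became 11 with males only and 13 to 19 without 1 animal. The calls of Emx2 (without WT replicate 2, 5 or 6 at 10 weeks, or 2 or 4 at day 7), En2 (1 or 2 at 10 weeks, or 1, 2 or 3 at day 7), Dlx4 (1 or 3 at day 7), Irx2 (4 at day 7) and Nkx2-2 (3 at day 7) were each lost without 1 animal, with adjusted p from 0.0507 to 0.114. Detection gave 38 genes at 0.1 CPM, 18 at 1 CPM and 22 with RLE scaling, against 22. No result changed direction. No paired analysis was possible because no 2 animals share a number in the labels. The block above groups neighbouring numbers, and whether those mark litters is not stated. Without a filter 68 members were tested at 10 weeks. The cause was not tested for any of these changes, and below about 0.1 CPM a few counts decide a value.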
